A study of Mus musculus with 7 samples.

Results

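TNF, its receptors, the death receptor Fas and a set of NF-kB genes were followed in the skin of aged mice after topical ABT-263. The 10 genes were chosen by symbol for their roles, with earlier results of these data known. They were the ligand Tnf and the receptors Tnfrsf1a, Tnfrsf1b and Fas. The others were the NF-kB subunit genes Nfkb1, Nfkb2 and Relb, and the feedback genes Nfkbia, Tnfaip3 and Birc3. All 10 were found among the 55450 genes of the count table, and all 10 were among the 17959 genes with enough counts to be tested. Wild-type male C57BL/6 mice aged 24 months received 5 μM ABT-263 on the dorsal skin (3 mice, numbered 476, 477 and 478) or the vehicle DMSO alone (4 mice, numbered 480 to 483). ABT-263, also called navitoclax, inhibits anti-apoptotic proteins of the BCL-2 family and is used as a senolytic, a drug that removes senescent cells. In both groups the hair was clipped and chemically removed, the skin was cleansed with ethanol, and the site stayed under a semi-occlusive film dressing for 5 days, so these handling steps are shared by the controls and skin without them is not analysed here. The treated skin was excised and homogenized whole, and its polyA RNA was sequenced with 1 library per mouse. In such bulk samples, fewer cells of a type and less RNA per cell cannot be told apart.

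TNF is a cytokine made mainly by activated immune cells, and it signals through the widely expressed receptor encoded by Tnfrsf1a and through the receptor encoded by Tnfrsf1b, which is found above all on immune and endothelial cells. Receptor engagement activates the IkB kinases, the inhibitor IkB alpha (Nfkbia) is degraded, and NF-kB dimers enter the nucleus, where they switch on inflammatory genes together with the inhibitors that end the signal. In skin, this pathway is known for its part in inflammation and in the decision between survival and death of keratinocytes.

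After ABT-263, 6 of the 10 genes were higher and 0 were lower at an adjusted p under 0.05 (edgeR quasi-likelihood test, Benjamini-Hochberg adjustment over all genes tested). Over all genes tested, 24.2% were called, 12.4% higher and 11.7% lower. The 6 were Tnf, Tnfrsf1a, Fas, Nfkb1, Tnfaip3 and Birc3, and their fold changes ran from 1.71 for Tnfrsf1a to 9.88 for Tnf. Tnfrsf1b, Nfkb2, Relb and Nfkbia did not pass. At an unadjusted p under 0.05 the counts were 7 higher and 0 lower. Among all 17959 genes tested, ranked by p, Ngfr stood at 7184 with an unadjusted p of 0.0497 (edgeR). The DESeq2 Wald test called 7 of the 10 higher and 0 lower after adjustment, and 2986 higher and 2712 lower of 21253 genes over all. The median log2 fold change of the 10 genes was 1.14, against 0.00 over all genes tested. In 7 of the 10 genes, the 6 above and Tnfrsf1b, every ABT-263 mouse lay above every DMSO mouse, and in 0 the reverse held. Of all genes tested, 37.1% were separated in either direction and 18.7% with ABT-263 above. The count of called genes rests in part on single mice: it was 4 without ABT-263 mouse 476, 3 without DMSO mouse 483 and 2 without DMSO mouse 482. Over all genes tested, the number called higher went from 2234 to 1116, 988 and 850 in the same fits.

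Promoter sequence is shown for Nfkbia, Nfkb2 and Tnfaip3, because all are textbook targets of NF-kB that differed in their response, and for Tnf, because it had the largest fold change of the 10. RefSeq promoter windows on GRCm38.p6, taken as the 250 bases before each listed transcription start, matched 8 of the 10 genes with 11 windows. Nfkb1 and Relb were not matched. The κB consensus, a motif of 10 letters bound by NF-kB dimers, was searched on both strands. It was present in 5 windows of 3 genes, in all listed windows of Nfkb2 and Nfkbia and in 1 of Tnfaip3, and absent from the other 6 windows, among them those of Tnf and Birc3. Of 32851 mouse promoter windows of the same length, 7.3% held it. In the lines that follow, capitals mark the letters that match, and in the piece from the first Nfkb2 window 2 matches overlap. The Nfkbia window is chr12:55492648-55492897, minus strand, with its match 29 to 20 bases before the start, and the Tnf window is chr17:35202008-35202257, minus strand. The 30-base pieces come from Nfkb2 at chr19:46304688-46304717, chr19:46305449-46305478 and chr19:46305695-46305724, plus strand, and from Tnfaip3 at chr10:19015516-19015545 and chr10:19015411-19015440, minus strand. These pieces lie before a listed start but inside the gene positions given below. Exons annotated on either strand cover 250, 167 and 234 of the 250 bases of the Nfkb2 windows, in that order. They cover 110 bases of this Tnfaip3 window and 0 of the Nfkbia and Tnf windows.
Nfkbia: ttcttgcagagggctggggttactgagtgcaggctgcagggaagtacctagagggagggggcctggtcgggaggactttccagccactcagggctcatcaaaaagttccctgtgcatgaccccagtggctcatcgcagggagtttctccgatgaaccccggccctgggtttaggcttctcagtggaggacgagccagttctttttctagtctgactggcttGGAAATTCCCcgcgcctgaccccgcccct
Tnf: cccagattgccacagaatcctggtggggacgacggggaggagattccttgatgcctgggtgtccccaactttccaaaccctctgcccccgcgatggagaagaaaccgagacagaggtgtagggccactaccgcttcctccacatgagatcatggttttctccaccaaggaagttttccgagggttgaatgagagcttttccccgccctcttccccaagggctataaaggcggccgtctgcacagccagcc
Nfkb2, first window: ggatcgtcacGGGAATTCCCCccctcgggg
Nfkb2, next window: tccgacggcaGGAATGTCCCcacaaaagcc
Nfkb2, last window: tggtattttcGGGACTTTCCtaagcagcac
Tnfaip3, upstream piece: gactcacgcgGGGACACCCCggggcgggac
Tnfaip3, piece next to the start: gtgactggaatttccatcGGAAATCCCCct
The first Nfkb2 window holds a further match, 11 to 2 bases before the start, in chr19:46304707-46304736, a piece that overlaps the printed one and is not shown.
A match is only a match of letters, and no binding was measured.

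The libraries held 20344364 to 26824123 counts in the DMSO group and 27325963 to 43562330 in the ABT-263 group, so every treated library was the larger, and with all counts thinned to the smallest library 6 of the 10 genes were again called higher. Spearman correlations between libraries across genes were 0.954 to 0.987 within a treatment and 0.881 to 0.974 between treatments, and genes are not independent replicates. The keratins of skin were abundant in every library, with summed keratinocyte markers of 17926 to 50484 CPM, the counts of a gene relative to the library total after scaling with TMM factors. DMSO mouse 481 stood apart in markers of the growing hair follicle, which were keratins and Tchh. They summed to 2314 CPM there and to 9.12 to 9.39 CPM in the other DMSO mice. The sum was 457 CPM in ABT-263 mouse 478.

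Tnf, the ligand (chr17:35199381-35202007, minus strand, GRCm38), had the lowest CPM of the 10 genes in control skin. Its level was 1.23, 0.885, 1.54 and 1.56 CPM in DMSO mice 480 to 483, which were 21 to 38 counts per library. In ABT-263 mice 476, 477 and 478 it was 27.0, 9.40 and 2.36 CPM, or 756, 373 and 110 counts. All ABT-263 mice were above all DMSO mice, but mouse 478 lay close to the controls and the 3 treated mice spanned a range of 11.4-fold. The group means were 1.30 ± 0.318 (SD, n = 4) and 12.9 ± 12.7 CPM (SD, n = 3). The log2 fold change was 3.30 ± 0.72 (SE), with an adjusted p of 0.0191 from edgeR and a 95% interval from 3.10-fold to 31.5-fold. Without mouse 476 the fold change was 4.52 (adjusted p = 0.0350, edgeR), and without DMSO mouse 482 the adjusted p was 0.0512. Among 15590 genes with a mean of at least 1 CPM, those most like Tnf over the 7 mice in log2 CPM were Cd14, Nlrp3 and Stfa2l1, with a Pearson r of 0.992, 0.990 and 0.988. Mouse 476 was the highest of the 7 in all of them, and the points share the libraries.

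**Figure D1:**
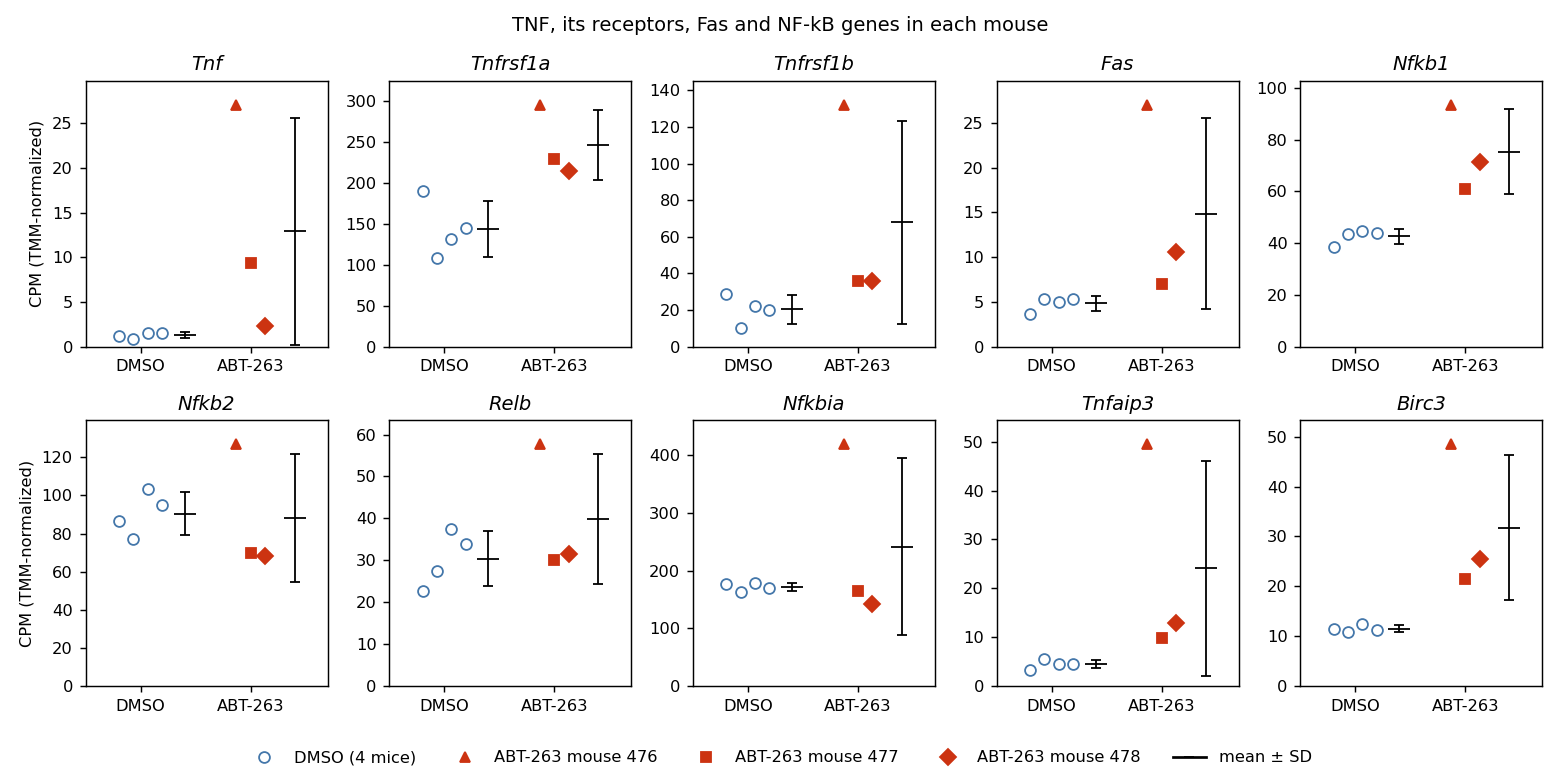
Expression of each of the 10 genes in CPM (TMM-normalized, linear axis from 0) in every mouse, with open circles for the 4 DMSO mice, filled symbols for ABT-263 mice 476, 477 and 478, and bars for the mean ± SD of each group. ABT-263 mouse 476 is the highest mouse in every panel, and mice 477 and 478 also lie above all DMSO mice in 7 panels but not for Nfkb2, Relb and Nfkbia.

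The receptors differed in how far they rose. Tnfrsf1a (chr6:125349362-125362484, plus strand), the receptor through which TNF can trigger both NF-kB and cell death, was at 190, 108, 131 and 145 CPM in DMSO mice 480 to 483. It was at 295, 229 and 214 CPM in ABT-263 mice 476, 477 and 478. The groups did not overlap, and the treated mice differed from each other by 1.37-fold at most, the smallest spread of any of the 10 genes in that group. The means were 143 ± 34.4 (SD, n = 4) and 246 ± 42.7 CPM (SD, n = 3), a 1.71-fold difference with a log2 fold change of 0.78 ± 0.21 (SE, adjusted p = 0.0331, edgeR). This call passed in 1 of the 7 fits that left out a mouse, the fit without DMSO mouse 480 (adjusted p = 0.0161, edgeR). Without ABT-263 mouse 476 it had an adjusted p of 0.0992, the highest of the other 6 fits, of which the lowest was 0.0524 without mouse 477. The genes most like it over the 7 mice were Emcn, Plvap and Cap1, with a Pearson r of 0.996, 0.995 and 0.994.

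Tnfrsf1b (chr4:145213463-145246870, minus strand), the receptor of immune and endothelial cells, was at 28.7, 10.2, 22.5 and 20.1 CPM in DMSO mice 480 to 483. In ABT-263 mice 476, 477 and 478 it was at 132, 36.0 and 35.7 CPM. Mice 477 and 478 were nearly equal and lay just above the highest control, and mouse 476 was far above both. The means were 20.4 ± 7.70 (SD, n = 4) and 67.8 ± 55.4 CPM (SD, n = 3), and the log2 fold change of 1.73 ± 0.54 (SE) had an adjusted p of 0.0512 from edgeR, just over the threshold. Its 95% interval ran from 1.40-fold to 7.87-fold before adjustment over genes. The DESeq2 Wald test gave an adjusted p of 0.00459, testing only genes with at least 10 counts in every library gave 0.0453 with edgeR, and leaving out mouse 476 lowered the fold change from 3.32 to 1.76 (adjusted p = 0.160, edgeR). Most like it over the 7 mice were Il10ra, Fermt3 and Lcp1, with a Pearson r of 0.997, 0.996 and 0.996.

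Fas (chr19:34290666-34327772, plus strand), the receptor of Fas ligand that assembles a caspase-8 activating complex, was at 3.64, 5.35, 5.03 and 5.34 CPM in DMSO mice 480 to 483. ABT-263 mice 476, 477 and 478 had 27.0, 7.01 and 10.5 CPM. The groups did not overlap, and mouse 477 was the treated mouse closest to the controls. Mean levels were 4.84 ± 0.813 (SD, n = 4) and 14.8 ± 10.6 CPM (SD, n = 3), a 3.06-fold difference with a log2 fold change of 1.61 ± 0.43 (SE, adjusted p = 0.0322, edgeR). The call passed in 1 of 7 fits that left out a mouse, that without ABT-263 mouse 477 (adjusted p = 0.0151, edgeR), and the other fits gave adjusted p-values from 0.0566 without mouse 478 to 0.0790 without DMSO mouse 482. Without mouse 476 the fold change was 1.82 (adjusted p = 0.0719, edgeR). Hsd11b1, Gfra1 and Pnrc1 were most like it, with a Pearson r of 0.996, 0.996 and 0.994 over the 7 mice.

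The 3 subunit genes did not move alike. Nfkb1 (chr3:135584655-135691547, minus strand) encodes the precursor subunit of the canonical branch, which is the branch that TNF activates. It was at 38.4, 43.5, 44.7 and 43.9 CPM in DMSO mice 480 to 483 and at 93.3, 61.1 and 71.5 CPM in ABT-263 mice 476, 477 and 478. The controls were tightly grouped and every treated mouse was above them. Means were 42.6 ± 2.86 (SD, n = 4) and 75.3 ± 16.4 CPM (SD, n = 3), a 1.77-fold difference with a log2 fold change of 0.82 ± 0.16 (SE, adjusted p = 0.0124, edgeR). The call held in 7 of 7 fits that left out a mouse. Nfe2l2, Morc3 and Ifih1 were most like it, with a Pearson r of 0.998, 0.995 and 0.995 over the 7 mice.

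Nfkb2 (chr19:46304320-46312385, plus strand) encodes the precursor subunit of the non-canonical branch, which receptors such as the lymphotoxin beta receptor and CD40 engage. It was at 86.4, 77.0, 103 and 94.9 CPM in DMSO mice 480 to 483 and at 127, 69.8 and 68.1 CPM in ABT-263 mice 476, 477 and 478. Mouse 476 was above all controls and mice 477 and 478 were below all of them. Both of these mice were below all controls in 3776 of the 17959 genes tested, and in Nfkb2 alone of the 10. The means were 90.5 ± 11.4 (SD, n = 4) and 88.2 ± 33.4 CPM (SD, n = 3), with a log2 fold change of -0.04 (adjusted p = 0.924, edgeR) and a 95% interval from -0.58 to 0.50. Without mouse 476 it was -0.39 (adjusted p = 0.147, edgeR), and without mouse 477 it was 0.14. Genes on the opposite strand overlap 18.1% of its exon bases, and the authors counted by strand. Rhoc, Trim12c and Derl2 were most like it, with a Pearson r of 0.969, 0.967 and 0.958 over the 7 mice.

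Relb (chr7:19606217-19629438, minus strand), the partner of the processed Nfkb2 product, was at 22.8, 27.5, 37.4 and 33.9 CPM in DMSO mice 480 to 483. It was at 57.6, 30.1 and 31.6 CPM in ABT-263 mice 476, 477 and 478. Mice 477 and 478 fell within the range of the controls, and mouse 476 alone was above it. Means of 30.4 ± 6.53 (SD, n = 4) and 39.8 ± 15.5 CPM (SD, n = 3) gave a log2 fold change of 0.39 (adjusted p = 0.313, edgeR), with a 95% interval from -0.23 to 1.00. Without mouse 476 it was 0.03 (adjusted p = 0.944, edgeR). Crem, Il27 and Map3k15 were most like it, with a Pearson r of 0.977, 0.975 and 0.963 over the 7 mice.

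The feedback genes also parted. Nfkbia (chr12:55489410-55492647, minus strand) encodes IkB alpha, the inhibitor that is degraded and then made anew when NF-kB is active, and its window above carries a κB match close to the start. It was at 177, 163, 179 and 170 CPM in DMSO mice 480 to 483 and at 418, 165 and 142 CPM in ABT-263 mice 476, 477 and 478. The controls differed little, mouse 476 was far above them, mouse 477 was within their range and mouse 478 was below it. The means were 172 ± 6.98 (SD, n = 4) and 242 ± 154 CPM (SD, n = 3), with a log2 fold change of 0.49 (adjusted p = 0.332, edgeR) and a 95% interval from -0.32 to 1.29. Without mouse 476 the direction turned, to -0.16 (adjusted p = 0.501, edgeR). Ptpre, Neurl3 and Hbb-bt were most like it, with a Pearson r of 0.986, 0.985 and 0.984 over the 7 mice.

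Tnfaip3 (chr10:19000910-19015657, minus strand) encodes the ubiquitin-editing enzyme that shuts down signalling from the TNF receptor complex. It was at 3.36, 5.48, 4.57 and 4.56 CPM in DMSO mice 480 to 483 and at 49.4, 9.91 and 12.9 CPM in ABT-263 mice 476, 477 and 478. All treated mice were above all controls, and mice 477 and 478 lay close together. Means were 4.49 ± 0.871 (SD, n = 4) and 24.1 ± 22.0 CPM (SD, n = 3), a 5.35-fold difference with a log2 fold change of 2.42 ± 0.55 (SE, adjusted p = 0.0211, edgeR). Without mouse 476 the fold change was 2.55 (adjusted p = 0.0205, edgeR), while the adjusted p was 0.0562 without DMSO mouse 482 and 0.0553 without DMSO mouse 483. Fjx1, Ywhah and Hsd11b1 were most like it, with a Pearson r of 0.993, 0.992 and 0.991 over the 7 mice.

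Birc3 (chr9:7848699-7873186, minus strand) encodes a ubiquitin ligase of the inhibitor of apoptosis family that acts in the TNF receptor complex. It was at 11.5, 10.9, 12.4 and 11.3 CPM in DMSO mice 480 to 483 and at 48.4, 21.4 and 25.5 CPM in ABT-263 mice 476, 477 and 478. The controls were tightly grouped and all treated mice were well above them. The means were 11.5 ± 0.647 (SD, n = 4) and 31.8 ± 14.6 CPM (SD, n = 3), a 2.76-fold difference with a log2 fold change of 1.46 ± 0.27 (SE). Its adjusted p of 0.0109 from edgeR was the lowest of the 10 genes, and the call held in 7 of 7 fits that left out a mouse. Nek6, Cd48 and Cd53 were most like it, with a Pearson r of 0.996, 0.995 and 0.995 over the 7 mice.

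**Figure D2:**
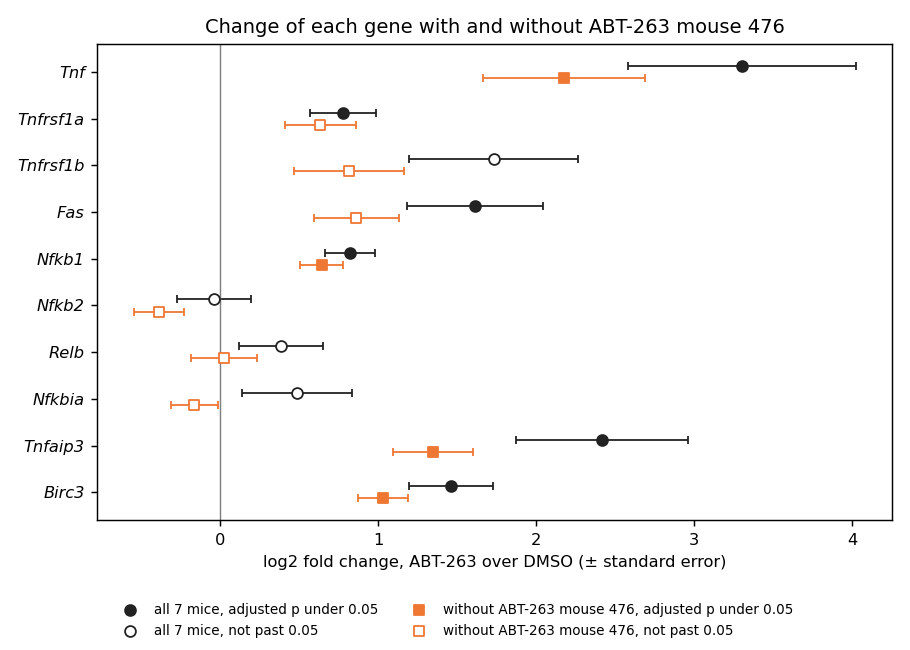
Log2 fold change of each gene, ABT-263 over DMSO, with its standard error, from edgeR on all 7 mice (circles) and without ABT-263 mouse 476 (squares), filled where the adjusted p was under 0.05. Tnf, Nfkb1, Tnfaip3 and Birc3 are filled in both fits, Tnfrsf1a and Fas only with all 7 mice, and Nfkbia moves from 0.49 to -0.16.

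Mouse 476 was the highest of the 7 mice for 10 of the 10 genes, which was the case for 21.0% of all genes tested. Relative to the DMSO mean, its level was 20.7-fold for Tnf, 11.0-fold for Tnfaip3, 6.47-fold for Tnfrsf1b and 5.57-fold for Fas, but 1.40-fold for Nfkb2. Mice 477 and 478 were both above all controls for 7 of the 10 genes, and not for Nfkb2, Relb and Nfkbia. Over the 17959 genes tested, 3950 had both of these mice above all controls. The order of mice 477 and 478 was not the same for every gene: relative to the DMSO mean, Tnf was at 7.21-fold in mouse 477 and 1.81-fold in mouse 478, and Fas was at 1.45-fold and 2.17-fold. The plot of each ABT-263 mouse against the controls shows these differences. Deviations from the group means were positively correlated between genes, with a Pearson r over the 7 mice of 0.140 to 0.987 in the 45 pairs (median 0.844). The points share their libraries, and mouse 476 is high in each, so this is a description of these mice.

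**Figure D3:**
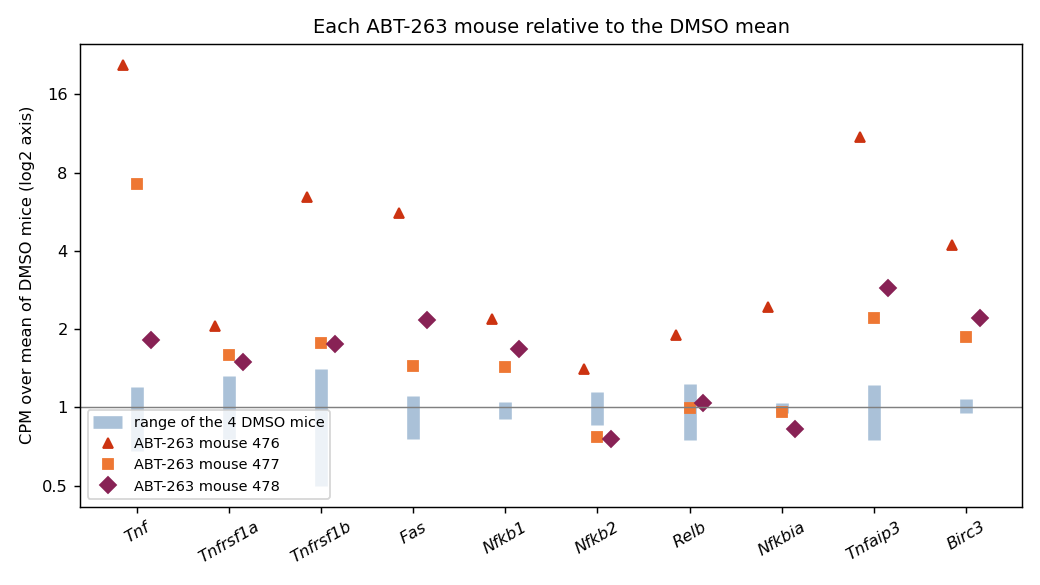
Level of each gene in each ABT-263 mouse divided by the mean CPM of the 4 DMSO mice (log2 axis), with the range of the DMSO mice as a bar. Mouse 476 is above the bar for all 10 genes, and mice 477 and 478 are below it for Nfkb2, inside it for Relb, and inside and below it for Nfkbia.

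Per kilobase of exon, the levels of the 10 genes in DMSO skin ran over more than 2 orders of magnitude. Nfkbia was highest, at 107 CPM per kilobase, followed by Tnfrsf1a at 55.4 and Nfkb2 at 19.7, and the ranges of these 3 genes over the 4 mice did not overlap. Next in order, Relb (7.82 CPM per kilobase) overlapped Tnfrsf1b (5.34), which overlapped Nfkb1 (3.53). Fas (2.35) and Birc3 (2.30) also overlapped each other, as did Tnf (0.795) and Tnfaip3 (0.621 CPM per kilobase), the lowest. The order depends on the exon length used, which merged all annotated transcripts and was 12061 bases for Nfkb1. In CPM, Nfkb1 (42.6) was above Relb (30.4) and Tnfrsf1b (20.4) in DMSO skin. In ABT-263 skin the order from Nfkbia at 150 to Tnfaip3 at 3.33 CPM per kilobase was less clear, since every pair of neighbours overlapped between mice except Tnfrsf1a (94.9) and Nfkb2 (19.2).

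Ratios of genes within a library do not depend on how libraries are scaled, and 3 were compared with a two-sided exact permutation test, for which 4 against 3 mice cannot give a p below 0.0286. The ratio of Nfkb2 to Nfkb1 counts was 2.25, 1.77, 2.32 and 2.16 in DMSO mice 480 to 483 and 1.36, 1.14 and 0.951 in ABT-263 mice 476, 477 and 478. Every treated mouse, mouse 476 included, was below every control. The mean log2 ratio was 1.08 ± 0.18 (SD, n = 4) in DMSO and 0.19 ± 0.26 (SD, n = 3) in ABT-263 skin, with an exact p of 0.0286, the smallest possible, and 0.0857 after Benjamini-Hochberg adjustment over the 3 ratios. The ratio of Tnfrsf1b to Tnfrsf1a was 0.151, 0.0947, 0.172 and 0.139 in the controls and 0.448, 0.157 and 0.166 in the treated mice, of which mouse 476 alone was outside the control range (exact p = 0.114, adjusted 0.171). The ratio of Relb to Rela, the subunit genes of the non-canonical and the canonical branch, was 0.242 to 0.442 in the controls and 0.356 to 0.591 in the treated mice, with overlap (exact p = 0.371, adjusted 0.371).

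**Figure D4:**
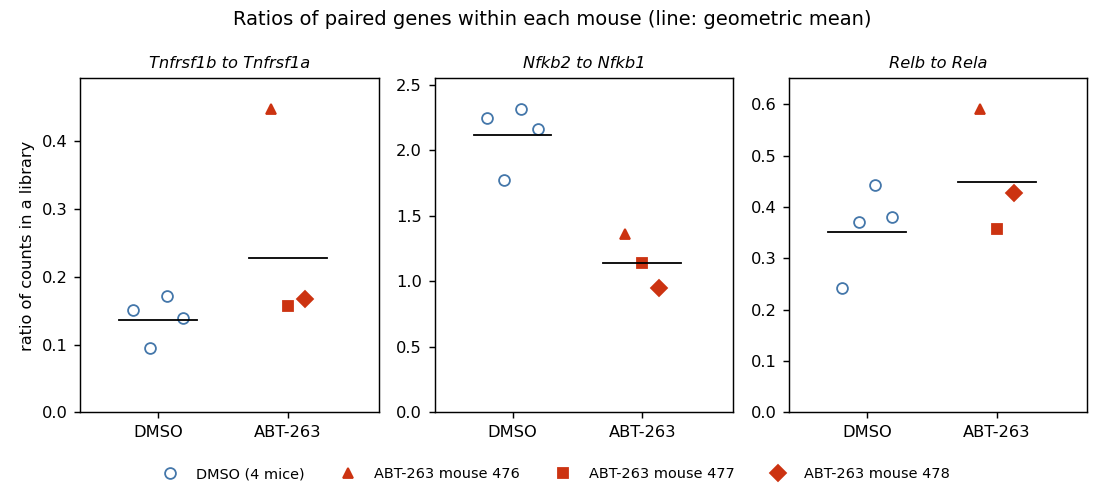
Ratio of the counts of a pair of genes in each library (linear axis from 0), with open circles for DMSO mice, filled symbols for ABT-263 mice and lines for geometric means. The Nfkb2 to Nfkb1 ratio lies between 1.77 and 2.32 in the DMSO mice and between 0.951 and 1.36 in the ABT-263 mice, and the other ratios overlap.

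Around these 10 genes, 112 further genes of the pathway were listed by role, with earlier results of these data known, and 105 were tested. Of these, 30 were higher (28.6%, against 12.4% over all genes tested) and 1 was lower (edgeR, adjusted p under 0.05), with a median log2 fold change of 0.71. Without ABT-263 mouse 476, 14 were higher and 1 was lower, and leaving out DMSO mice 481, 482 and 483 in turn left 13, 11 and 10 higher. Over all genes tested, the number called higher also went down in those 4 fits, from 2234 to between 850 and 1404. Testing every gene with at least 1 count called 19 of the pathway genes, all higher, and 1873 of 30645 genes higher over all.

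Of 17 TNF superfamily ligands, 11 were tested and 3 were higher (27.3%, against 12.4% over all genes tested), with a median log2 fold change of 1.00. Tnfsf10, the death ligand TRAIL, had means of 1.95 ± 0.942 CPM (SD, n = 4) in DMSO and 10.1 ± 5.08 CPM (SD, n = 3) in ABT-263 skin (log2 fold change 2.36, adjusted p = 0.0139, edgeR). Tnfsf13, the cytokine APRIL, rose from 0.723 ± 0.478 to 3.22 ± 1.20 CPM and Tnfsf14, the cytokine LIGHT, from 0.745 ± 0.562 to 5.83 ± 5.26 CPM (adjusted p = 0.0266 and 0.0281, edgeR). The most abundant ligands that did not pass were Tnfsf12, at 16.9 ± 4.20 CPM in DMSO and 18.7 ± 4.73 CPM in ABT-263 skin, and Ltb, at 3.37 ± 1.93 and 6.55 ± 5.55 CPM. Here and in the lists that follow, ± gives the SD over 4 DMSO and 3 ABT-263 mice unless named otherwise. Fasl was among those with too few counts to test. Without mouse 476, 1 ligand was called higher, Tnfsf10 (adjusted p = 0.0370, edgeR).

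Among 22 tested receptors of the superfamily, 4 were higher (18.2%, against 12.4% over all genes tested) and 0 lower by edgeR, with a median log2 fold change of 0.41. At an unadjusted p under 0.05, 8 were higher and 3 lower. Ngfr, with an unadjusted p of 0.0497 (edgeR), ranked 7184 by p among all 17959 genes tested. DESeq2 called 7 receptors higher and 2 lower, and 2986 higher and 2712 lower of 21253 genes over all. Ltbr, the lymphotoxin beta receptor, rose from 59.1 ± 6.39 (SD, n = 4) to 85.8 ± 12.8 CPM (SD, n = 3, adjusted p = 0.0329, edgeR). Cd40 rose from 3.57 ± 1.75 to 11.7 ± 7.35 CPM, Tnfrsf11a, the receptor RANK, from 3.83 ± 0.554 to 7.30 ± 2.25 CPM, and Tnfrsf13b from 2.81 ± 1.03 to 7.18 ± 3.11 CPM (adjusted p = 0.0467, 0.0351 and 0.0375, edgeR). Tnfrsf12a stood at 52.7 ± 14.2 and 52.3 ± 8.90 CPM and Tnfrsf18 at 34.4 ± 3.92 and 31.1 ± 6.18 CPM, and neither passed. Without mouse 476 the 4 receptors lost their calls, with edgeR adjusted p-values from 0.0998 for Ltbr to 0.157 for Cd40, and they also lost them without DMSO mouse 481, 482 or 483.

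The signalling proteins next to the receptors mostly did not pass: of 26 tested, 4 were higher, or 15.4% against 12.4% over all genes tested, and 1 was lower, with a median log2 fold change of 0.08. Casp8, the initiator caspase below Fas and Tnfrsf1a, rose from 10.1 ± 3.76 (SD, n = 4) to 30.5 ± 6.40 CPM (SD, n = 3). Its log2 fold change was 1.60 (adjusted p = 0.00987, edgeR), and 1.44 without mouse 476 (adjusted p = 0.0260). Adam17, the protease that sheds TNF and its receptors from the cell surface, rose 1.69-fold (adjusted p = 0.0233, edgeR). Ripk1, the kinase of the TNF receptor complex, rose 1.82-fold, and the adaptor gene Traf1 rose 3.88-fold (adjusted p = 0.0275 and 0.0313, edgeR). Without mouse 476 these 3 lost their calls, at 1.58-fold for Adam17, 1.52-fold for Ripk1 and 1.97-fold for Traf1 (adjusted p = 0.0675, 0.0737 and 0.0540, edgeR). Chuk, which encodes IkB kinase alpha, fell from 30.5 ± 3.71 (SD, n = 4) to 20.0 ± 4.40 CPM (SD, n = 3). Its log2 fold change was -0.61 (adjusted p = 0.0414, edgeR), and -0.79 without mouse 476 (adjusted p = 0.0280), but the call was lost without DMSO mouse 481, 482 or 483 and without ABT-263 mouse 477 or 478. Rbck1, of the linear ubiquitin ligase, was at 107 ± 5.76 and 87.8 ± 13.6 CPM and the adaptor gene Tab2 at 82.4 ± 6.24 and 75.5 ± 5.37 CPM, and neither passed.

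Of 7 other subunit and IkB genes, 2 were higher (28.6%, against 12.4% over all genes tested). Nfkbiz, an inducible nuclear IkB protein, was at 20.3, 13.4, 20.6 and 15.9 CPM in DMSO mice 480 to 483 and at 84.8, 37.6 and 63.8 CPM in ABT-263 mice 476, 477 and 478, without overlap. Its log2 fold change was 1.82 ± 0.28 (SE, adjusted p = 0.00746, edgeR) and 1.54 without mouse 476 (adjusted p = 0.0170). Nfkbid, another nuclear IkB protein, rose 3.85-fold (adjusted p = 0.0276, edgeR) with mouse 478 at 3.39 CPM inside the control range, and without mouse 476 it was 2.85-fold higher and not called (adjusted p = 0.0799). Rela, the main activating subunit of the canonical branch, was at 85.4 ± 8.39 (SD, n = 4) and 85.3 ± 11.8 CPM (SD, n = 3), and Nfkbib was at 49.3 ± 3.70 and 46.6 ± 5.99 CPM, and neither passed.

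Feedback regulators beyond the 3 above were higher in 4 of 13 cases (30.8%, against 12.4% over all genes tested), with a median log2 fold change of 0.50. Tax1bp1, an adaptor through which Tnfaip3 acts, rose from 78.7 ± 7.95 (SD, n = 4) to 138 ± 14.7 CPM (SD, n = 3), with an adjusted p of 0.00868 from edgeR and of 0.0232 without mouse 476. Tnip1, a binding partner of Tnfaip3, rose 2.28-fold (adjusted p = 0.0326, edgeR) and Zc3h12a, an RNase that degrades inflammatory mRNAs, 2.94-fold (adjusted p = 0.0415, edgeR). Tnfaip8l2 rose 3.09-fold (adjusted p = 0.0293, edgeR). Without mouse 476, Tnip1 was still called (adjusted p = 0.0421), while Tnfaip8l2, at 2.03-fold, and Zc3h12a, at 3.02-fold, were not (adjusted p = 0.0665 and 0.113, edgeR). Ier3, at 93.4 ± 30.8 and 194 ± 129 CPM, and Rnf11, at 89.4 ± 17.4 and 126 ± 6.80 CPM, did not pass.

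Response targets of NF-kB were higher in 13 of 26 cases (50.0%, against 12.4% over all genes tested) by edgeR. Their median log2 fold change was 2.79 (1.18 without mouse 476, with 9 called higher). Leaving out a DMSO mouse left 8 called without mouse 480, 7 without mouse 481 and 6 without mouse 482 or 483. Over all genes tested, 2234 were called higher with all mice and 1116 without mouse 476. Without DMSO mice 480, 481, 482 and 483 in turn, 2065, 1404, 850 and 988 were. None of the response targets was lower, also at an unadjusted p under 0.05 or with DESeq2. Il1b, the inflammatory cytokine, was at 5.11, 12.1, 5.80 and 9.86 CPM in DMSO mice 480 to 483 and at 736, 140 and 38.5 CPM in ABT-263 mice 476, 477 and 478. The order of the treated mice was that of Tnf, and none overlapped the controls (log2 fold change 5.21 ± 0.97 SE, adjusted p = 0.0132, edgeR). Sele and Vcam1, adhesion molecules of activated endothelium, rose from 0.563 ± 0.222 to 8.96 ± 6.68 CPM and from 4.72 ± 1.05 to 29.8 ± 24.1 CPM (adjusted p = 0.00977 and 0.0131, edgeR). Csf1, the macrophage growth factor, rose 1.95-fold from 27.1 ± 4.76 (SD, n = 4) to 52.9 ± 8.69 CPM (SD, n = 3, adjusted p = 0.0118, edgeR). Without mouse 476 these 4 genes were still called, with lower fold changes: from 37.1 to 10.9 for Il1b, from 15.9 to 10.3 for Sele, from 6.31 to 3.43 for Vcam1 and from 1.95 to 1.84 for Csf1. Saa3, an acute phase protein, was at 6.78 to 283 CPM in DMSO and 577 to 6802 CPM in ABT-263 skin without overlap, and it did not pass (adjusted p = 0.0570, edgeR). Lcn2, which encodes an iron-sequestering antimicrobial protein, did not pass either (adjusted p = 0.0508, edgeR).

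**Figure D5:**
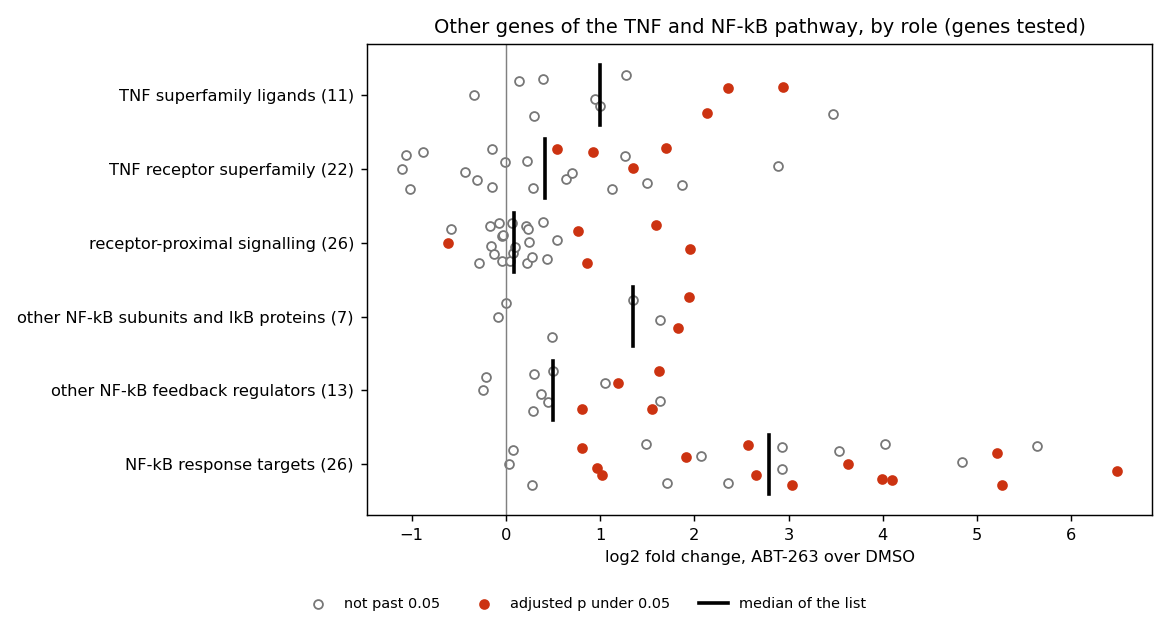
Log2 fold change, ABT-263 over DMSO, of each tested gene in the 6 lists of further pathway genes, filled where the edgeR adjusted p was under 0.05, with a line at the median of each list. The medians lie between 0.08 for receptor-proximal signalling and 2.79 for response targets, and the only filled point below 0 is Chuk.

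Markers of other cell types moved with the treatment beside these genes. Over all genes tested, 12.4% were called higher and 11.7% lower (edgeR, adjusted p under 0.05). Summed over 11 macrophage markers, the level was 453 to 1336 CPM in DMSO and 1541 to 4676 CPM in ABT-263 mice, with 7 of 11 higher (edgeR, adjusted p under 0.05). Summed over 8 neutrophil markers it was 100 to 1822 CPM in DMSO and 5098 to 8392 CPM in ABT-263 mice, with 3 of the 6 tested higher. S100a8 and S100a9, which stressed keratinocytes also make, were the most abundant of them, with S100a9 at 38.0 to 1285 CPM in DMSO and 3355 to 5016 CPM in ABT-263 mice, and Ly6g and Ngp were at 0 in some libraries. The neutrophil surface marker Ly6g was at 0 to 0.253 CPM in the controls, 0.101 and 0.172 CPM in mice 477 and 478, and 14.0 CPM in mouse 476. All 5 endothelial markers were higher, with sums of 121 to 266 CPM and 380 to 490 CPM, as were 3 of 6 fibroblast markers, with sums of 3905 to 5483 and 6123 to 8519 CPM. Skeletal muscle markers went the other way: their sum was 22232 to 47573 CPM in DMSO and 15352 to 23800 CPM in ABT-263 mice, and 1 of 4, Tnnt3 of the fast troponin complex, was called lower (log2 fold change -1.16, adjusted p = 0.0319, edgeR). Leaving out DMSO mouse 480 gave 2 muscle markers called lower, and leaving out any other mouse gave 0 by edgeR. Of 7 T cell markers 0 were called by edgeR, with sums of 12.4 to 24.6 and 12.3 to 51.0 CPM, and 0 of the 2 tested B cell markers were called, in both lists also at an unadjusted p under 0.05. The macrophage, neutrophil, endothelial and muscle counts rest in part on single mice. Of the 6 fibroblast markers, 2 or 3 were called higher whichever mouse was left out. Over all genes tested, the number called higher was 2234 with all mice, and 1404, 850 and 988 without DMSO mice 481, 482 and 483. Without ABT-263 mice 476, 477 and 478 in turn, that number was 1116, 2286 and 964. Of the macrophage markers, 1 was called higher without DMSO mouse 483, 3 without ABT-263 mouse 476 or 478, and 4 without DMSO mouse 481 or 482. Of the neutrophil markers, 1 was called without DMSO mouse 482 or 483 or ABT-263 mouse 476. Of the endothelial markers, 2 were called without DMSO mouse 482 or 483 or ABT-263 mouse 476 or 478, and 3 without DMSO mouse 481 or ABT-263 mouse 477. Mouse 476 had the highest macrophage, neutrophil, endothelial and T cell sums of the 7 mice, and DMSO mouse 481 had the lowest macrophage, neutrophil and endothelial sums. The part of these cell types in the levels of the 10 genes was not tested.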

How the data were processed

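Dorsal skin of 7 mice was analysed by bulk RNA sequencing, with 1 library per mouse. Reads were aligned to mm10 by the authors with STAR (version 2.7.9a). With featureCounts (Subread 1.6.2) they counted properly paired, uniquely mapped fragments for every Ensembl gene other than mitochondrial ones, keeping those from the gene's own strand. They deposited these raw counts and a table of variance-stabilized values on a log2 scale made with DESeq2 (version 1.23.10), which served here only as an alternative. The labels and the paper name different kits for RNA extraction. GENCODE M21 (GRCm38) supplied symbols, positions and exon lengths for 55190 of 55450 identifiers.

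Counts were tested in R 4.3.3 with edgeR 4.0.16 (two-sided quasi-likelihood test with robust estimation after TMM scaling and filterByExpr) and Benjamini-Hochberg adjustment over 17959 genes, with a threshold of 0.05. Confidence intervals and standard errors come from that fit. For likeness, 1 was added to CPM, and for ratios 0.5 to counts. Depth limits precision mainly for Tnf, with 21 to 38 counts in DMSO libraries. The fit was tested on simulated data. No table held columns of other samples.

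The 10 genes and the lists were chosen with earlier results of these data known. Named beside the 10 are, per list, up to 4 genes with the smallest p in each direction among those past the threshold and the 2 most abundant that did not pass, and the 3 genes most like each of the 10. Marker genes and Fasl do not come from this rule, and their values were known when they were picked. As alternatives, the Wald test of DESeq2 1.42.0 was run, and edgeR was run with upper-quartile scaling, with DESeq2 size factors, with no filter on low counts, with at least 10 counts in every library, with protein-coding genes only, on counts thinned to the smallest library, after removal of length and GC trends (mgcv 1.9.3), and without each mouse in turn. The variance-stabilized values were tested with limma 3.58.1. Counts of marker genes without each mouse were added after seeing the data.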

Additional observations from a re-analysis of the deposited data

How the results depend on the processing

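Of the 10 genes, 6 passed with all mice and 4 to 7 under the 9 alternatives other than leaving out a mouse, while leaving out a mouse gave 2 to 5. Over all genes tested, 2234 of 17959 were called higher with all mice and 850 to 2286 with a mouse left out. Under the alternatives that number also moved, to 1873 of 30645 genes with no filter on low counts and 2986 of 21253 with DESeq2. Tnf and Tnfaip3 did not pass without a filter on low counts (edgeR adjusted p = 0.0510 and 0.0536), and Fas did not with limma on the variance-stabilized values (0.0521). Tnfrsf1b passed in 2 of the 9 alternatives. Of the further pathway genes, 31 passed with all mice, 19 without that filter, and 10 to 32 when a mouse was left out. The log2 fold change of Nfkb2, not called in any fit, ran from -0.39 without ABT-263 mouse 476 to 0.14 without mouse 477, with 0.13 without mouse 478 and 0.03 without DMSO mouse 482, and that of Nfkbia from -0.16 without mouse 476 to 0.77 without mouse 478. The causes of these changes were not tested. The 3 ratios kept their direction under every alternative run for them. Their adjusted p says little about stability, since 1 separated ratio among 3 cannot go below 0.0857 with all mice, and with a mouse left out the exact test cannot give a p under 0.05. Scaling moved the median of all genes by less than 0.1 (log2). No paired analysis was possible because the groups share no replicate numbers.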
